A study of Mus musculus with 4 samples.

Results

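Messenger RNA of 42 genes that handle histones outside and around DNA replication was followed in alveolar type II (AT2) cells, which secrete surfactant in the lung. The genes were taken by symbol from a table of 22565 genes, all 42 were found on 1 row each, and they fall into 11 replacement histones, 20 histone chaperones with their partners and 11 histone mRNA processing genes. The cells were primary, untreated and sorted by flow cytometry from lungs of mice aged 6 months. Of the 4 RNA-seq libraries, 2 were wild type (WT) and 2 carried the title KO. The genotype field names an Fbxo45 knockout for KO replicate 1 and an Fbxo46 knockout for KO replicate 2, while the growth protocol speaks of Fbxo45-cKO mice alone. The Cre driver, the deleted part of the gene and the number of animals behind each library were not stated in the sources used. The question the design poses is how the transcriptome of AT2 cells differs between KO and WT.

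Replication-dependent histones are made in S phase from mRNAs that lack a poly(A) tail and end in a stem-loop. Replacement histones are made throughout the cell cycle, mostly from polyadenylated mRNAs, and are the main source of new histone in cells that seldom divide, as AT2 cells of an adult lung do. The stem-loop is bound by Slbp and cut by a complex with the U7 small nuclear RNP, and the finished proteins are carried to DNA by chaperones that differ for replication-coupled and replication-independent deposition.

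Values are FPKM (fragments scaled to transcript length and library size) as deposited, and fragments are the estimated read pairs recovered from the count columns. Depth ran from 4167117 fragments in WT replicate 1 to 9507429 in KO replicate 1. Fbxo45, the labelled target, was at 4.60 and 5.91 FPKM in the WT pair against 4.41 and 7.58 FPKM in the KO pair, and Fbxo46 was at 4.13 and 3.79 against 3.82 and 4.80 FPKM. Neither separated the groups, and values per gene do not resolve a deleted exon, so the text speaks of libraries labelled KO. AT2 markers summed to 85500 FPKM in KO replicate 1 and to between 122000 and 135200 FPKM in the other libraries. In each library 12 of 12 AT2 markers were above 1 FPKM, and 4 of 4 measured T and NK cell markers were at 0. Summed FPKM of other cell types ran from 812 to 1325 for club, 760.5 to 1073 for AT1, 34.7 to 48.1 for ciliated and 27.6 to 78.4 for fibroblast markers, the last lowest in WT replicate 2. It ran from 8.19 to 14.6 for macrophage (Marco at 0), 0 to 6.68 for neutrophil and 0.505 to 1.97 for endothelial markers. Fast skeletal muscle markers summed to 999 FPKM in KO replicate 1 and to between 5.82 and 13.9 FPKM in the other libraries, so KO replicate 1 stands apart. Results are therefore also given for each library. Values of a pair are given with replicate 1 first, and the KO pair means the libraries labelled KO. Over log2 values the KO-labelled libraries correlated at 0.905 and the WT libraries at 0.971. No label ties the replicates to separate animals, and p-values then reflect library spread that may be technical. In bulk RNA, fewer cells of a type and less RNA per cell cannot be told apart.

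The stem-loop is shown because it is the mark that the processing genes read. GENCODE transcripts (GRCm38) were searched on the sense strand for GGNNCTT, followed by NTN and then AGNNCC, in which the first 6 of the 16 bases pair with the last 6. Replication-dependent histone genes were taken as all symbols of the table that start with Hist. Of 61 such genes found in the annotation, 41 (67.21%) held the site, against 51 of all 21840 annotated genes (0.23%). Among the replacement histones 1 of 11 held it, and among the 31 processing and chaperone genes none did. The carrier was H2afx, which encodes H2A.X, the variant phosphorylated around DNA breaks. Its site lies at chr9:44335240-44335255 (GRCm38, plus strand), after the coding sequence and 822 bases before the end of the annotated transcript. The site is shown with the commonest form, found in 23 replication-dependent genes and represented by Hist1h3b (chr13:23752820-23752835, plus strand), and with that of Hist1h4d (chr13:23581950-23581965, plus strand), found in 7. Capitals mark the paired stem and lower case the loop.
H2afx: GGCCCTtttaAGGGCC
Hist1h3b: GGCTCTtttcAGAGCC
Hist1h4d: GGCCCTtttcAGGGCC
No replication-dependent histone gene held exactly the H2afx letters.

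By mean FPKM over the 4 libraries the most abundant members were the H3.3 genes. H3f3b (ENSMUSG00000016559, chr11:116021912-116027962, minus strand, GRCm38) and H3f3a (ENSMUSG00000060743, chr1:180800832-180813943, minus strand) both encode H3.3, the H3 variant placed at active genes and at telomeres independently of replication. H3f3b was at 194 and 210 FPKM in the WT pair against 184 and 236 FPKM in the KO pair. The KO pair bracketed the WT pair. H3f3a was at 168 and 180.5 FPKM in the WT pair against 76.7 and 248 FPKM in the KO pair. The KO-labelled libraries thus lay on opposite sides of WT and differed 3.24-fold from each other, where H3f3b differed 1.28-fold. The fragments behind the H3f3a values numbered 665 and 1392 in WT and 659 and 1663 in the KO-labelled libraries, which is 160 and 170 against 69.3 and 235 CPM (fragments scaled to library size alone). H3f3a made up 46.5% and 46.3% of H3.3 FPKM in the WT pair, and 29.4% and 51.2% in the KO pair. The summed H3.3 level was 376 ± 19.9 FPKM in the WT pair against 373 ± 158 FPKM in the KO pair (SD, n = 2 each).

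The log2 difference of H3f3a, KO-labelled minus WT on the log2(FPKM + 1) scale, was -0.33 (SE 0.523, limma adjusted p = 0.97). Without KO replicate 2 it was -1.17 with a limma adjusted p of 0.0337, the only member passing under any alternative run (1.21% of all tested genes passed in that fit), and without KO replicate 1 it was 0.51 with 0.178. In each of those fits the lone KO-labelled library is assumed to vary like the WT pair. KO replicate 1 is also the library with the muscle markers, whose part in the H3f3a value was not tested. H3f3a shares 10.8% of its 100-base stretches with 13 other annotated genes and H3f3b 3.2% with 2, and the treatment of reads matching several places was not stated in the sources used.

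**Figure D1:**
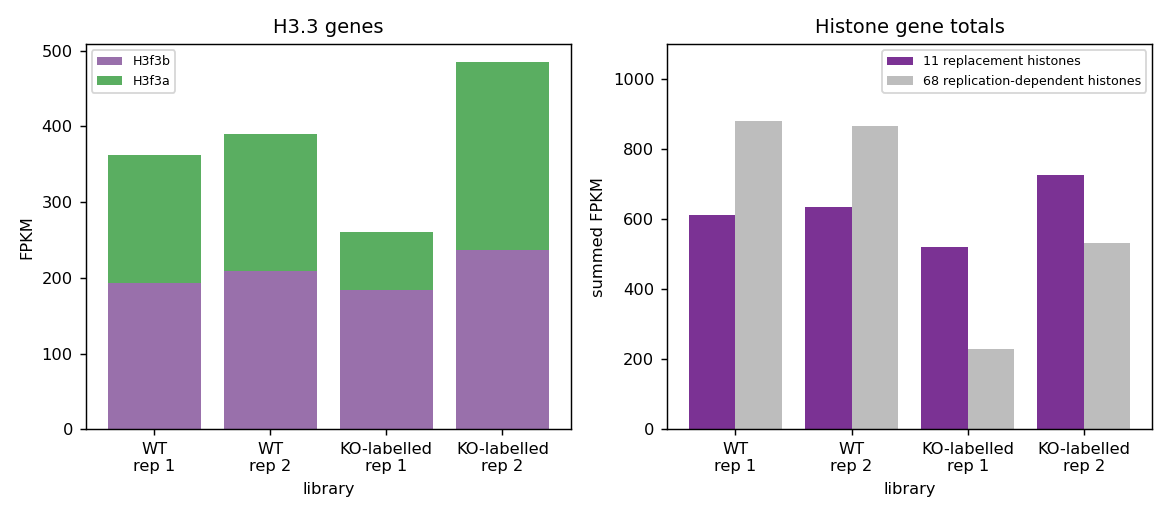
Left, stacked FPKM of H3f3b and H3f3a in each of the 4 libraries; right, summed FPKM of the 11 replacement and the 68 replication-dependent histone genes. H3f3a is at 76.7 FPKM in KO-labelled replicate 1 and at 248 FPKM in replicate 2, and the replication-dependent sum is 228 and 532 FPKM there against 880 and 867 FPKM in WT.

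The paired genes of H3.3 and of H2A.Z are read from separate promoters, shown because each pair encodes identical or nearly identical proteins while their mRNA levels parted between libraries. The windows are the 250 bases before the RefSeq start (GRCm38.p6), 5′ to 3′ on the gene's strand, with CCAAT and its reverse complement ATTGG in capitals. The H3f3a and H3f3b windows lie inside the GENCODE spans of those genes, which start further upstream. The windows are at chr1:180813606-180813855 (minus strand) for H3f3a, chr11:116024505-116024754 (minus) for H3f3b, chr3:137864237-137864486 (plus) for H2afz and chr11:6444444-6444693 (minus) for H2afv.
H3f3a: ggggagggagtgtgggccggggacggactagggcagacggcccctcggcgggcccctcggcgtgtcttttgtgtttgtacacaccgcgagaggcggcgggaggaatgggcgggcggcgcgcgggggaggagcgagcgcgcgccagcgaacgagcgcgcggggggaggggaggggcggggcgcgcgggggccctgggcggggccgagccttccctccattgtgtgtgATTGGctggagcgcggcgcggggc
H3f3b: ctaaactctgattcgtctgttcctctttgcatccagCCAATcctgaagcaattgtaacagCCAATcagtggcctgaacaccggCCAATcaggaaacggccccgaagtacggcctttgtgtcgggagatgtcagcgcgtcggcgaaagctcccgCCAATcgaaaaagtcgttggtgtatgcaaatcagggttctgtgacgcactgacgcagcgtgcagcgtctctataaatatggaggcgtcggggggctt
H2afz: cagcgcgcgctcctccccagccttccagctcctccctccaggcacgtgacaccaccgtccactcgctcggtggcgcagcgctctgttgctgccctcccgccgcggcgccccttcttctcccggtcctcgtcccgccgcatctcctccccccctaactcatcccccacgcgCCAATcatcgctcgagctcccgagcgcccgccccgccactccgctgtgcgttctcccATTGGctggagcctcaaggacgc
H2afv: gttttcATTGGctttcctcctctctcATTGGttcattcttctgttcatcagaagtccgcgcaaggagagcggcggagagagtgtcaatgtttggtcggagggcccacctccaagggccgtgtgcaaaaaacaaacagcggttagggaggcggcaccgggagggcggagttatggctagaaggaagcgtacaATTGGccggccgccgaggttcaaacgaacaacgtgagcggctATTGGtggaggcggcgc
CCAAT, counted on both strands, occurred 1 time in the H3f3a window and 4 times in that of H3f3b, and 2 and 4 times in those of H2afz and H2afv. RefSeq gave a window for 39 of the 42 genes. At least 1 CCAAT was present in 24 of the 39 (61.5%), in 6 of 10 replacement histones, 5 of 10 processing genes and 13 of 19 chaperones, against 37.5% of 27025 RefSeq genes and 40.2% of the 8294 whose symbol is a tested gene. TGACGTCA was found in 2 of 39 (5.1%), against 1.8% of RefSeq genes and 3.1% of those with a tested symbol. TTTNGCGC was found in 2 of 39 (5.1%), Casp8ap2 and Cpsf2, against 1.3% and 2.4%. These matches describe letters in a window and not factor binding.

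The H2A variants stood lower than the H3.3 genes, except in KO replicate 1, where H2afz was at 76.9 and H3f3a at 76.7 FPKM. H2afz encodes H2A.Z, the variant of promoter nucleosomes, and was at 87.8 and 85.3 FPKM in the WT pair against 76.9 and 96.7 FPKM in the KO pair. H2afv, its paralog, was at 22.0 and 25.2 against 24.7 and 17.9 FPKM. Together they stood at 110.2 ± 0.527 FPKM in the WT pair against 108 ± 9.21 FPKM in the KO pair, and H2afz took 79.9% and 77.2% of that in WT and 75.7% and 84.4% in KO replicates 1 and 2. H2afz shares 27.7% of its stretches with 2 other genes, and H2afv shares 0.0%. H2afj (chr6:136808244-136810074, plus strand), a variant that becomes more prominent in senescent cells, was at 40.4 and 39.0 FPKM in the WT pair against 26.6 and 34.0 FPKM in the KO pair. The KO pair lay below the WT pair, with a log2 difference of -0.39 (SE 0.216, limma adjusted p = 0.948), which remained between -0.56 and -0.22 when each library was left out. H2afx was at 7.27 and 4.61 FPKM in the WT pair against 4.55 and 5.03 FPKM in the KO pair, so that the groups overlapped. Its log2 difference was -0.24 and became 0.09 after a correction for GC content and length. The 68 replication-dependent histones, in contrast, summed to 880 and 867 FPKM in the WT pair against 228 and 532 FPKM in the KO pair. Of 36 tested, 26 had the KO pair below the WT pair, where 15.1% of all tested genes did. With limma 0 of the 36 passed and 23 had an unadjusted p under 0.05, where 4.84% of all tested genes did. With edgeR 0 of 27 tested passed and 11 had such a p (3.18% of all tested genes). Their median log2 difference was -1.18 with limma and -0.87 with edgeR. Sequence shared among these replication-dependent genes was not measured, so their rows may not be independent.

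H2afy encodes macroH2A, whose large extra domain marks compacted chromatin, and was at 35.5 and 34.5 FPKM in the WT pair against 45.1 and 36.2 FPKM in the KO pair. It was the 1 tested replacement histone with the KO pair above the WT pair on FPKM, where 20% of all tested genes had this pattern, and on CPM 0 had it (16.4% of all tested genes). H2afy2, the second macroH2A gene, rested on 3 and 3 fragments in WT and on 2 and 0 in the KO-labelled libraries. The linker histone H1f0, typical of resting and differentiated cells, was at 54.6 and 53.2 FPKM in the WT pair against 80.1 and 51.1 FPKM in the KO pair. H1fx, a GC-rich linker histone gene at 71.32% GC, was at 0.453 and 1.48 against 0.175 and 1.55 FPKM and rested on 2, 13, 2 and 11 fragments. Cenpa, the centromeric H3 variant loaded in dividing cells, rested on 2 and 3 fragments in WT and on 1 and 0 in the KO-labelled libraries. A count of 0 in KO replicate 2 allows up to 0.425 CPM (3 fragments, counting error only), so neither Cenpa nor H2afy2 can be compared at this depth. KO replicate 2 also listed 187 genes at 1 fragment, against 471 to 755 in the other libraries.

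Over the replacement histones 3 of 9 tested genes were higher and 6 lower in the KO-labelled libraries, with a median log2 difference of -0.13, where 54.1% of all 11055 tested genes were higher and their median was 0.03. A gene was tested if at least 2 of the 4 libraries held 1 FPKM of it or more, and Cenpa and H2afy2 did not. With limma 0 passed an adjusted p of 0.05, as did 0.0% of all tested genes, and 0 had an unadjusted p under 0.05. Relative to the WT mean, the KO pair had medians of -0.17 and 0.05, so the sign of the list's median rests on KO replicate 1. In 5 of the 9, both H3.3 genes, H2afz, H1f0 and H1fx, the KO pair lay on opposite sides of the WT pair, where 30.4% of all tested genes did. The sum over all 11 was 622 ± 16.4 FPKM in the WT pair against 623 ± 147 FPKM in the KO pair. In the WT pair this mRNA sum lay below the replication-dependent sum of 880 and 867 FPKM. In the KO pair it lay above that of 228 and 532 FPKM. Without H3f3a the replacement sum was 448 ± 7.93 FPKM in the WT pair and 461 ± 25.5 FPKM in the KO pair. H3f3a thus carried most of the spread between the KO-labelled libraries.

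**Figure D2:**
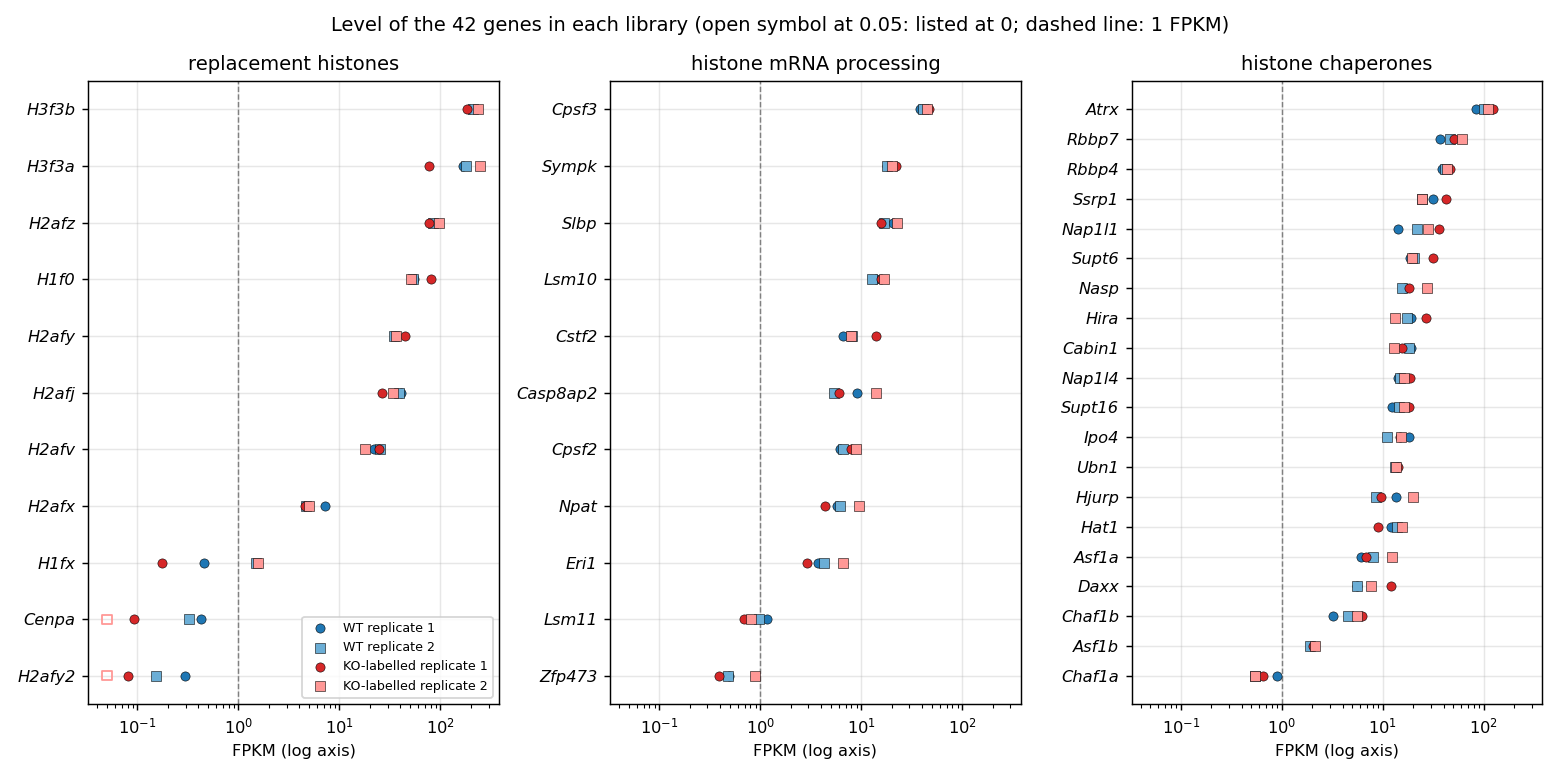
FPKM on a log axis of all 42 genes in the 4 libraries, by role; blue symbols are WT, red and pink symbols the KO-labelled libraries, and open symbols at 0.05 mark a value listed at 0. Levels run from the H3.3 genes, the highest 2 of the replacement histones in WT, to Cenpa and H2afy2, under 1 FPKM throughout.

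Genes of histone mRNA processing were detected in all 4 libraries. Slbp, which binds the stem-loop shown above, was at 20.5 and 17.0 FPKM in the WT pair against 15.6 and 22.7 FPKM in the KO pair, and the groups overlapped. The row of the endonuclease Cpsf3 shares a locus of 11 genes. Cpsf3 was at 38.5 and 40.9 FPKM in the WT pair against 46.6 and 44.4 FPKM in the KO pair. Its partner Cpsf2 was at 6.17 and 6.63 against 7.99 and 8.90 FPKM, and the scaffold Sympk at 17.9 and 18.1 against 22.2 and 20.2 FPKM. For Cpsf3, Cpsf2 and Sympk the KO pair exceeded the WT pair on FPKM. For Sympk the log2 difference was 0.22 on FPKM and -0.12 with edgeR on recovered fragments. Cpsf2 had 0.35 (SE 0.241, limma adjusted p = 0.948) and 0.39 with edgeR.

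The U7 small nuclear RNP carries Lsm10 and Lsm11 in place of common Sm proteins. Lsm10 was at 14.0 and 12.7 FPKM in the WT pair against 15.6 and 16.9 FPKM in the KO pair, both above WT. Lsm11 was at 1.17 and 0.97 against 0.697 and 0.802 FPKM, both below WT, and missed the filter, so it was not tested with limma. Its edgeR log2 difference was -0.52. Zfp473, a zinc finger protein of the same RNP, rested on between 9 and 22 fragments per library and was not tested either. By value, Lsm10 and Lsm11 thus lay on different sides of WT.

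Npat and Casp8ap2 organise the histone locus body, where histone genes are transcribed. Npat was at 5.72 and 6.22 FPKM in the WT pair against 4.42 and 9.63 FPKM in the KO pair. Casp8ap2 was at 9.02 and 5.44 FPKM in the WT pair against 6.05 and 14.1 FPKM in the KO pair. Eri1, an exonuclease trimming histone mRNA ends, was at 3.73 and 4.28 against 2.89 and 6.59 FPKM, its row sharing a locus of 6 genes. Each of these was higher in KO replicate 2 than in any other library, as was H3f3a. Cstf2, a cleavage factor, showed the opposite order, at 6.57 and 8.03 FPKM in the WT pair against 14.0 and 7.86 FPKM in the KO pair. On recovered fragments it stood at 33.4 and 39.0 against 34.9 and 40.3 CPM, and KO replicate 1 did not stand out. The Cstf2 row shares a locus of 4 genes.

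Over the processing genes 9 of 9 tested were higher in the KO-labelled libraries, beside 54.1% of all tested genes, with differences from 0.01 for Slbp to 0.48 for Cstf2 and a median of 0.22. The Cstf2 difference was 0.04 with edgeR and 0.05 with DESeq2. In 4 of the 9 the KO pair lay above the WT pair on FPKM (20% of all tested genes). On CPM it did in 4 (16.4%), 3 of them shared. With limma 0 passed and 0 had an unadjusted p under 0.05. With edgeR, where Lsm11 and Zfp473 were tested too, 7 of 11 were higher with a median of 0.21, where 51.9% of 11705 genes were higher. The count of 9 of 9 thus belongs to the main FPKM fit and the genes past the filter. After the GC and length correction Slbp (-0.07), Npat (-0.02) and Eri1 (-0.01) were lower. Without KO replicate 2 Slbp (-0.24), Casp8ap2 (-0.19), Npat (-0.36) and Eri1 (-0.36) were lower.

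The replication-independent H3.3 chaperones lay on both sides of WT. The HIRA complex consists of Hira, Ubn1 and Cabin1. Hira was at 19.0 and 17.2 FPKM in the WT pair against 26.7 and 13.2 FPKM in the KO pair. Ubn1 was at 13.8 and 13.3 against 14.1 and 13.5 FPKM, and its values overlapped. Cabin1 (chr10:75646112-75764341, minus strand) was at 19.0 and 18.0 FPKM in the WT pair against 15.5 and 12.9 FPKM in the KO pair. It was the 1 tested chaperone with the KO pair below the WT pair on FPKM, at a log2 difference of -0.37 (SE 0.221, limma adjusted p = 0.948), and edgeR gave -0.38. Hira shares 56.8% of its stretches with 1 other annotated gene and is uncertain.

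The second H3.3 pathway, at telomeres and repeats, uses Daxx and the remodeller Atrx. Daxx (chr17:33909414-33915590, plus strand) was at 5.57 and 5.51 FPKM in the WT pair against 12.1 and 7.63 FPKM in the KO pair, both above WT on this scale. Its log2 difference was 0.70 (SE 0.294, limma adjusted p = 0.948) on FPKM and 0.23 with edgeR. The fragments were 67 and 128 in WT and 216 and 102 in the KO-labelled libraries, and the FPKM reported per CPM differed 1.54-fold among the libraries. Atrx, the most abundant chaperone gene here, was at 84.1 and 101.3 FPKM in the WT pair against 123 and 109.8 FPKM in the KO pair, with log2 differences of 0.33 by both tools. Hira per Daxx was 3.41 and 3.12 in WT and 2.21 and 1.74 in the KO-labelled libraries as a ratio of FPKM. As a ratio of CPM it was 2.72 and 2.79 against 2.22 and 2.78, so the groups overlapped on recovered fragments and did not on FPKM.

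The replication-linked chaperones CAF-1 and Asf1b were low. CAF-1 deposits new H3-H4 behind the fork, and its subunit Chaf1a was at 0.886 and 0.546 FPKM in the WT pair against 0.655 and 0.546 FPKM in the KO pair, resting on 14 to 25 fragments, and was not tested. Chaf1b was at 3.19 and 4.47 against 6.23 and 5.53 FPKM, yet its fragments were 10, 79, 91 and 40, and its FPKM per CPM differed 2.85-fold among the libraries. Its row shares a locus of 8 genes. Asf1b, the proliferation-linked paralog of the H3-H4 chaperone Asf1, was at 1.99 and 1.902 against 2.04 and 2.14 FPKM, while Asf1a was at 6.05 and 8.04 against 6.87 and 12.3 FPKM. Hjurp, the chaperone of Cenpa, was at 13.6 and 8.63 FPKM in the WT pair against 9.62 and 19.9 FPKM in the KO pair, far above Cenpa itself, which did not exceed 0.424 FPKM. The Hjurp row shares its locus with other genes, 6 in all, and is uncertain. The proliferation marker Mki67 was at 0.699 and 1.19 against 0.589 and 0.797 FPKM, and 15 proliferation markers summed to between 64.4 and 73.2 FPKM in the 4 libraries. Of these 15, 3 were above 1 FPKM in each library. With limma 2 of 7 tested were higher (54.1% of all tested genes), with a median log2 difference of -0.19. With edgeR 5 of 12 were higher (51.9%), with a median of -0.29.

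General chaperones mostly had higher values in the KO pair, with no gene past the threshold. Nap1l1 (ENSMUSG00000058799, chr10:111473223-111498150, plus strand), an H2A-H2B chaperone, had the smallest p of the 42 genes. It was at 14.1 and 21.8 FPKM in the WT pair against 35.7 and 27.8 FPKM in the KO pair, both above WT. Its means were 18.0 ± 5.41 and 31.8 ± 5.61 FPKM (SD, n = 2 each), with a log2 difference of 0.81 (SE 0.282, limma unadjusted p = 0.029, adjusted p = 0.948) and of 0.64 with edgeR (unadjusted p = 0.0252, adjusted p = 0.999). Nap1l1 shares 41.0% of its stretches with 1 other annotated gene. Nap1l4 was at 14.1 and 14.8 against 18.6 and 16.05 FPKM. Nasp, which holds the H3-H4 reserve, was at 16.5 and 15.5 FPKM in the WT pair against 18.2 and 27.2 FPKM in the KO pair, with log2 differences of 0.46 (SE 0.261, limma adjusted p = 0.948) and 0.50 with edgeR.

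FACT opens nucleosomes for polymerases and is a dimer of Ssrp1 and Supt16. Supt16 was at 12.2 and 14.5 FPKM in the WT pair against 18.3 and 16.3 FPKM in the KO pair. Ssrp1 was at 31.1 and 24.5 FPKM in the WT pair against 42.2 and 24.4 FPKM in the KO pair. Supt6, which rebuilds nucleosomes behind polymerase, likewise stood out in KO replicate 1, at 31.1 FPKM against 18.6, 20.2 and 19.3 FPKM. For Supt16 both KO-labelled values exceeded WT, whereas for Ssrp1 and Supt6 KO replicate 1 alone did.

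Rbbp4 and Rbbp7 are WD40 subunits shared by CAF-1, the Hat1 enzyme and deacetylase complexes. Rbbp4 was at 38.7 and 41.1 against 45.9 and 43.0 FPKM, and Rbbp7 at 36.9 and 45.8 against 50.9 and 61.1 FPKM, the KO pair above the WT pair in each. On CPM both genes overlapped between the groups. The log2 difference of Rbbp7 was 0.43 (SE 0.22, limma adjusted p = 0.948) and 0.13 with edgeR. The Rbbp7 row shares a locus of 6 genes. Hat1, which acetylates new H4, was at 12.1 and 13.7 FPKM in the WT pair against 8.96 and 15.6 FPKM in the KO pair. Ipo4, the importin for H3-H4, was at 18.3 and 10.9 against 14.7 and 15.04 FPKM, and its log2 difference was 0.07 on FPKM and -0.46 with edgeR. It shares 57.8% of its stretches with 1 other annotated gene.

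Over the chaperones 17 of 19 tested genes were higher, where 54.1% of all tested genes were, with a median of 0.32. In 10 of 19 the KO pair lay above the WT pair on FPKM (20% of all tested genes). On CPM 6 of 19 did (16.4% of all tested genes), without Chaf1b, Daxx, Rbbp4 and Rbbp7, and 2, Cabin1 and Ipo4, lay below (17.1%). With limma 0 passed, and Nap1l1 alone had an unadjusted p under 0.05. Taken singly against the WT mean, the KO pair had medians of 0.30 and 0.25. The list's median was 0.25 with edgeR, where 16 of 20 were higher (51.9% of all genes tested with edgeR), and 0.21 after the GC and length correction. Over all members 29 of 37 tested were higher (54.1% of all tested genes). The KO pair lay above the WT pair in 15 on FPKM (20%) and in 10 on CPM (16.4%). It did so in 9 on both, for which no share over all tested genes is given here. With limma, edgeR and DESeq2 0 passed, and each gave 1 unadjusted p under 0.05, for Nap1l1. Of all tested genes 4.84% had such a p with limma and 3.18% with edgeR, and DESeq2 called 0.0457% of its 15326. Without WT replicate 2 limma called 0.0271% of all tested genes and 0 members. With 2 libraries against 2, a permutation of single values cannot give a p below 0.333.

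**Figure D3:**
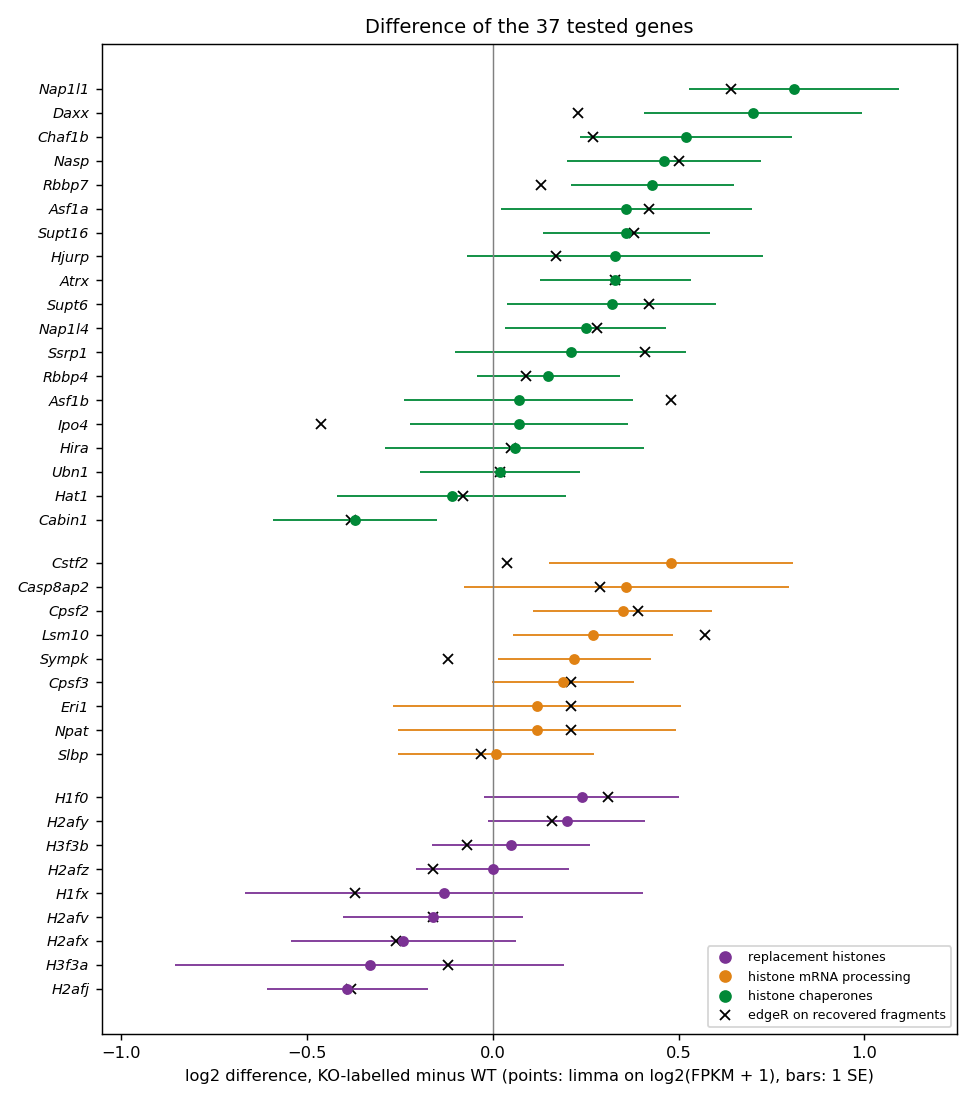
Log2 difference, KO-labelled minus WT, of the 37 tested genes by role; points are limma on log2(FPKM + 1) with bars of 1 SE, and crosses are edgeR on recovered fragments. Most chaperone and processing genes sit to the right of 0, replacement histones on both sides. Daxx, Rbbp7, Cstf2, Sympk and Ipo4 have crosses well to the left of their points. Those of Asf1b (0.48 against 0.07) and Lsm10 (0.57 against 0.27) lie well to the right.

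The KO pair differed from each other in many members. In 11 of 37 tested members they lay on opposite sides of the WT pair, which is 29.7% where 30.4% of all tested genes did. Beside the histones named above these were Slbp, Npat, Eri1, Hat1, Hira and Ssrp1. On the log2 scale the difference between the WT libraries had an SD of 0.31 over the 37 genes and 0.39 over 10975 tested genes. The difference between KO replicates 1 and 2 had an SD of 0.62 and 0.73 over the same sets. It went with GC content: among the 18 genes below the median GC of the members, 12 were higher in KO replicate 2, and among the other 19, 12 were higher in KO replicate 1. Spearman's rho with GC was 0.32 over these 37 genes and 0.22 over 10975 tested genes, and for the difference between the WT libraries it was 0.43 and 0.23. These are correlations across genes of the same libraries, given as descriptions, and a fit corrected for GC content and length changed the sign of 7 of the 37 differences.

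**Figure D4:**
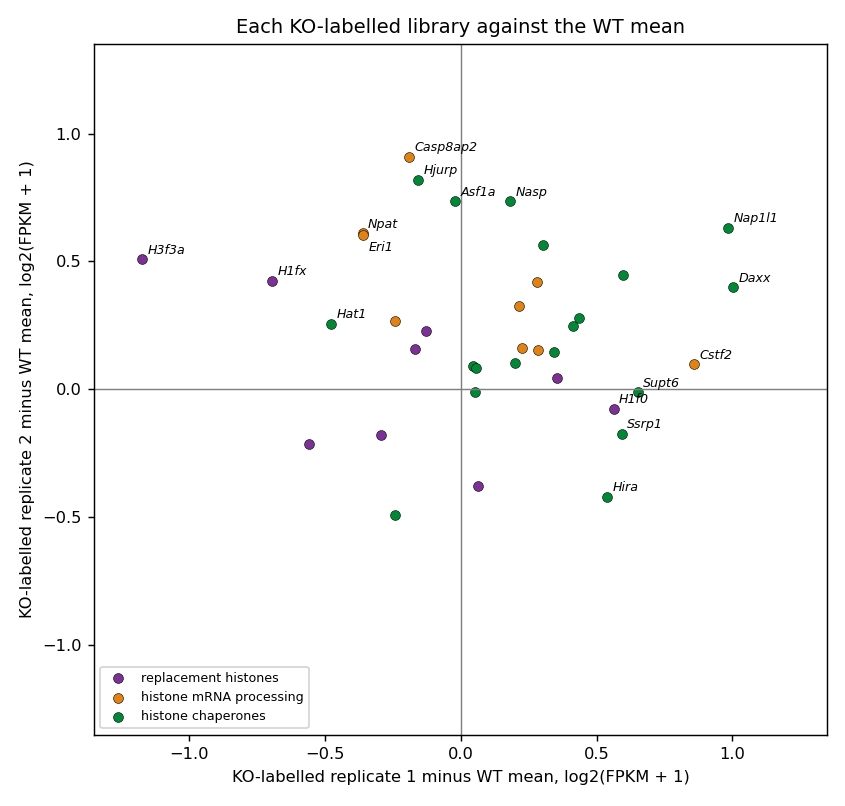
Log2(FPKM + 1) of each tested gene in KO-labelled replicate 1 (x axis) and replicate 2 (y axis), each minus the WT mean, coloured by role. H3f3a lies at -1.17 and 0.51, far from the diagonal, while Nap1l1, at 0.98 and 0.63, and Daxx, at 1.00 and 0.40, lie above 0 on both axes.

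For 38 members with at least 10 fragments in each library, FPKM and fragments could be set against each other. FPKM per CPM differed more than 1.5-fold among the libraries in 7 of the 38 (18.4%, against 20.5% of 10263 tested genes). These were Chaf1b at 2.85-fold, Casp8ap2 at 2.50, Cstf2 at 2.06, Ipo4 at 1.84, Lsm10 at 1.79, Hira at 1.61 and Daxx at 1.54. For Casp8ap2, fragments of 144 and 346 in WT and 465 and 322 in the KO pair, or 34.6 and 42.2 against 48.9 and 45.6 CPM, do not follow the FPKM order given above. For H3f3a (1.05-fold), Atrx (1.04-fold) and Npat (1.09-fold) both measures gave the same picture. The isoform lengths behind the FPKM were not stated in the sources used.

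Other genes of the same pathways gave a reference. Of 25 further genes of cleavage and histone mRNA processing, all tested, 12 were higher and 13 lower, with a median of -0.01, and 0 passed with limma, edgeR or DESeq2. Each tool gave 1 unadjusted p under 0.05, for Pcf11. Pcf11, which ends transcription by polymerase II, was at 15.1 and 16.6 FPKM in the WT pair against 30.6 and 22.8 FPKM in the KO pair, at a log2 difference of 0.70 (limma adjusted p = 0.948). The Sm proteins Snrpe, at 13.2 and 14.9 against 9.95 and 1.20 FPKM, and Snrpd3, at 13.8 and 14.0 against 13.1 and 3.301 FPKM, were lowest in KO replicate 2. Of 27 tested further chaperone and deposition genes 20 were higher (54.1% of all tested genes), with a median of 0.16. With any of the 3 tools 0 passed. An unadjusted p under 0.05 was found for 3 with limma (Anp32e, Anp32a and Chd1). It was found for 2 with edgeR (Ncl and Chd1) and for 3 with DESeq2 (Ncl, Anp32a and Chd1). Ncl is named after its values were seen. Anp32e, which removes H2A.Z from nucleosomes, was at 26.03 and 16.6 against 58.4 and 31.6 FPKM, its row sharing a locus of 26 genes. Anp32a, a related acidic protein, was at 118 and 125.5 FPKM in the WT pair against 320.0 and 157 FPKM in the KO pair. The remodeller Chd1 was at 15.7 and 15.05 against 44.2 and 20.96 FPKM. Without KO replicate 2 limma called Anp32a (log2 difference 1.39, adjusted p = 0.0248) and Chd1 (1.46, adjusted p = 0.037), and without KO replicate 1 neither.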

How the data were processed

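Total RNA of sorted AT2 cells was depleted of ribosomal RNA and made into stranded libraries, per the labels' protocols. The submitters' processing notes list HISAT2 2.0.4, cutadapt 1.9.3, Cuffdiff 2.2.1, Cufflinks and the mm10 build. The deposited table gives FPKM, which the authors scaled to length and library, and estimated counts, which the authors deposited as multiples of 1 constant per library. Dividing by it made 90.9% to 92.5% of positive values whole within 0.05, and these recovered fragments were rounded for count tests. WT libraries held 4167117 and 8200177 fragments, KO-labelled libraries 9507429 and 7066424.

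In R 4.3.3, limma 3.58.1 with a mean-variance trend gave the principal test, on log2(FPKM + 1) of all genes with 1 FPKM in at least 2 libraries, KO minus WT, adjusted by Benjamini-Hochberg at 0.05. Log differences understate changes of low genes. edgeR 4.0.16 (quasi-likelihood, TMM) and DESeq2 1.42.0 were run on recovered fragments, and the procedure was tested on simulated data. Sequence shared between genes is given as the percent of 100-base stretches, taken every 5 bases along the GENCODE M21 transcripts, that recur in another gene. Of the table's genes, 5875 share a locus with another. Members sharing a locus of 2 or 3 genes were H2afy2, H1fx, Zfp473, Asf1a, Chaf1a, Ssrp1, Supt16, Supt6, Ipo4, Rbbp4 and Hat1. The text names all 42 members, the labelled targets and, per list of further genes, the 3 with the smallest p. Members and lists were chosen with earlier results of these data known.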

Additional observations from a re-analysis of the deposited data

How the results depend on the processing

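No member result was past the threshold, so the alternatives bear on sizes and directions. Genes called, 0 with limma on all libraries, numbered 7 with DESeq2 and from 0 to 134 when each library was left out, 3 without WT replicate 2 and 134 without KO replicate 2. Members called ranged from 0 to 1 and further pathway genes called from 0 to 2 when each library was left out, both reached without KO replicate 2. Members higher numbered 29 of 37, and 17 of 23 without genes that share a locus, where fewer were tested. They ranged from 23 to 30 when each library was left out. The count was 25 of 40 with edgeR (51.9% of all genes tested with edgeR were higher) and 25 of 42 with DESeq2. Of 37 tested, 27 were higher with median-ratio scaling, 26 with the GC and length correction and 25 with quantile normalization. For the replacement histones edgeR gave 2 of 9 higher. The median of the replacement histones ranged from -0.17 to 0.05, that of the processing genes from 0.20 to 0.33 and that of the chaperones from 0.24 to 0.30 when each library was left out. The chaperone median of 0.32 was 0.24 with quantile normalization, 0.25 with edgeR, 0.26 with DESeq2, 0.25 on dropping genes that share a locus (9 tested) and 0.21 on correcting for GC and length; dropping genes that share a locus leaves fewer genes, and for the others the cause was not tested. Single members changed sign 9 times without KO replicate 1, 8 times without KO replicate 2, 7 times with the GC and length correction and 4 times each with edgeR, DESeq2 and quantile normalization. With the replicate block 0 genes and 0 members were called and 29 members were higher; deviations by replicate number correlated at 0.026, so the numbers are not shown to pair samples. On CPM of recovered fragments in place of FPKM, the KO pair lay above the WT pair in 6 chaperones (10 on FPKM) and 0 replacement histones (1), and below it in 2 chaperones (1). The CPM order, the GC and length correction and the locus alternative were chosen after seeing the data. Depth limits Cenpa, H2afy2, H1fx, Zfp473 and Chaf1a, each on 25 fragments or fewer per library.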
